A study of Mus musculus with 6 samples.

Results

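The endoplasmic reticulum (ER) folds the secreted and membrane proteins of a cell with a set of luminal chaperones, and 3 membrane sensors report on the load. When unfolded proteins accumulate, IRE1 (encoded by Ern1) splices the mRNA of the transcription factor XBP1, ATF6 is cut to release a transcription factor, and PERK slows translation. XBP1 and ATF6 then raise transcription of chaperone genes, a programme called the unfolded protein response. Here 10 genes of this system were described in mouse presomitic mesoderm, from which the somites bud off. They are the sensors Ern1 and Atf6, the transcription factor Xbp1, the chaperones and cochaperone Hspa5, Hyou1, Hsp90b1 and Dnajc3, the lectin chaperone Calr, and the disulfide isomerases Pdia4 and Pdia6. The members were chosen by name, with earlier results of these data known. A probe set belonged to them when its only gene symbol in the platform annotation was 1 of these 10. Each of the 10 genes had 1 such probe set, among 15153 genes measured.

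Expression was read on 6 arrays, each holding RNA from 3 pooled presomitic mesoderms dissected at embryonic day 9.5 (17 to 19 somites). Mutant embryos (3 pools) were TCre/+;Taf10flox/flox, so that a Cre recombinase driven in the T lineage can delete Taf10, which encodes a subunit of the transcription complexes TFIID and SAGA. Control embryos (3 pools) are labelled WT and carried Taf10Flox/+ or Taf10flox/flox, so every embryo had at least 1 floxed allele. The labels do not give the Cre status of the controls, the sex of the embryos or the share of cells with a deleted gene. All values below are log2 intensities after robust multi-array averaging (RMA), and a change is the mutant mean minus the control mean. Each change was tested with limma's moderated test, with p-values adjusted over all 16311 probe sets that had 1 gene symbol, and a gene was called at an adjusted p under 0.05.

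Median intensities ran from 311.0 to 316.8 on the mutant arrays and from 307.9 to 317.5 on the control arrays. Mutant 3 stood apart, at a root mean square of 0.184 log2 units from the mean of the mutants, where the remaining arrays stood at 0.0762 to 0.112 from theirs. Each result that rests on mutant 3 is therefore given with and without it, the second from 2 mutant pools. Xist, read from the inactive X chromosome, had a log2 intensity of 11.3 to 12.5 in the mutants, and of 12.6, 12.0 and 6.32 in controls 1, 2 and 3. One Taf10 probe set read 10.40, 10.37 and 10.18 in mutant pools, against 10.77, 10.61 and 10.69 in control pools. It fell (log2 -0.37, SE 0.08, limma adjusted p = 0.0400). The other read 8.85, 8.93 and 9.19 in mutant pools and 8.95, 8.89 and 8.79 in control pools. That probe set did not pass (log2 0.11, SE 0.10, limma adjusted p = 0.530). Which of these probe sets reads the Taf10 transcript, and which part of it, is not known here. Of 12 measured presomitic mesoderm markers, 10 lay above the median of all probe sets. Their summed intensity was 27555 to 29607 in mutant pools and 24285 to 25260 in control pools, with 2 markers called higher and 2 lower.

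Promoters of members are shown first because 5 of the 8 members with an entry in the RefSeq promoter table (all but Atf6 and Hyou1) hold the letters of the ER stress element. This element, called ERSE, is the known docking site through which NF-Y, ATF6 and XBP1 act on chaperone genes. The letters searched were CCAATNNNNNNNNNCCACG on both strands, from 250 bases before the start site to 50 after it, in build GRCm38.p6. The ERSE letters occur in 0.119% of all 32851 promoters of that length, and in 0.159% of the 11935 measured genes with an entry. The search was chosen after the members' values were seen. The element is already known from chaperone genes, so its presence among the members is no test. Capitals mark the matches, and each sequence reads 5′ to 3′ along its gene. The 5 members with a match are printed, and Xbp1 as the member that passed the test.
Dnajc3, chr14:118937682-118937981, plus strand: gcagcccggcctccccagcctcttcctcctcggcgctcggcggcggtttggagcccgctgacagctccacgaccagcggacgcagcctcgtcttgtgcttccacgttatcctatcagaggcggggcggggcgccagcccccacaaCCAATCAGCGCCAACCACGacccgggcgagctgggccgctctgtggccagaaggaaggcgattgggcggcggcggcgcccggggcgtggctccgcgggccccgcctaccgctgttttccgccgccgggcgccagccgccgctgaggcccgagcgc
Pdia6, chr12:17266339-17266638, plus strand: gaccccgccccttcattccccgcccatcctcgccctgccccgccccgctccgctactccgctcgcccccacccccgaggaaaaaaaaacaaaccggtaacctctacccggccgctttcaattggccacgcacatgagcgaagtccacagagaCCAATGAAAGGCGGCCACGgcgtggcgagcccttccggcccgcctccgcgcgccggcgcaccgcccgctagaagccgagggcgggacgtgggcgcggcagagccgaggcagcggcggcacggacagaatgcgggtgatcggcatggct
Hsp90b1, chr10:86705395-86705694, minus strand: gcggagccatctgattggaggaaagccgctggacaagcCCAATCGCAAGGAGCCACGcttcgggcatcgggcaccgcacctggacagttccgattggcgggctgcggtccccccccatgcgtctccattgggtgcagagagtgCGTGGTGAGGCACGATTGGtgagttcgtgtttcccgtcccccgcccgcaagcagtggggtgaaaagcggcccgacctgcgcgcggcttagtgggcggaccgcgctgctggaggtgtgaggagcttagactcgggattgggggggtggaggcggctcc
Hspa5, chr2:34771840-34772139, plus strand: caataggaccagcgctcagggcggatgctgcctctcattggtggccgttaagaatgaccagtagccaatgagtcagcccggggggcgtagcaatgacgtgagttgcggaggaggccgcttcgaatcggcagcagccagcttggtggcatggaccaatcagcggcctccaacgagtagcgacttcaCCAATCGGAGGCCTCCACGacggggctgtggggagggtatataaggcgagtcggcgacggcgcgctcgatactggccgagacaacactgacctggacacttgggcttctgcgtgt
Calr, chr8:84846882-84847181, minus strand: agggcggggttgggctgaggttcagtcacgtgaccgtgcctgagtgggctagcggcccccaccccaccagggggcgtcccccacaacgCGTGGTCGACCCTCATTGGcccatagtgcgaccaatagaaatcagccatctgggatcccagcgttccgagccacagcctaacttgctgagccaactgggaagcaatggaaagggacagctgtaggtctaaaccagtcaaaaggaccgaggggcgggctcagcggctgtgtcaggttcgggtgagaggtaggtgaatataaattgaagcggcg
Xbp1, chr11:5520391-5520690, plus strand: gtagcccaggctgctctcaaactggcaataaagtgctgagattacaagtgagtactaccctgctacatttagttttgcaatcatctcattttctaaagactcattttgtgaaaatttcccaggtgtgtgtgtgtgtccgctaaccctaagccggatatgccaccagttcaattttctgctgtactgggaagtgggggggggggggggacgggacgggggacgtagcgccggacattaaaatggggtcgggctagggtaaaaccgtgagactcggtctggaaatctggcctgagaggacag

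The match began 65 bases before the start site in Hspa5, 98 in Pdia6 and 105 in Dnajc3, all on the strand of the gene. In Calr it began 162 bases before the start site on the opposite strand. Hsp90b1 held 2 matches, 212 bases before the start site on its own strand and 107 before it on the opposite strand. The windows of Xbp1, Ern1 and Pdia4 held no match, which says only that these exact letters are not there. The related letters ATTGGNCCACG (ERSE-II) and TGACGTGG (the core of the element bound by XBP1), each searched on both strands, were in none of the 8 windows. They occur in 0.0365% and 0.676% of all promoters. Of the 5 members with ERSE letters, Dnajc3, Pdia6, Hsp90b1 and Hspa5 had mutant values that all lay below the controls and Calr did not, where 15.1% of all genes had such values. Of the 3 members with an entry but without the letters, Xbp1 and Pdia4 had such values too and Ern1 did not.

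Xbp1 fell in mutant presomitic mesoderm, and it was the 1 member of 10 that passed over all 6 arrays. Its log2 intensity was 10.80, 10.68 and 10.89 in mutant pools 1, 2 and 3, against 11.23, 11.25 and 11.17 in control pools 1, 2 and 3. The groups did not overlap, and the highest mutant pool lay below the lowest control pool. The level fell to 74.3% of control (log2 -0.43, SE 0.07, 95% interval -0.60 to -0.26, limma adjusted p = 0.0196). A two-sided exact permutation over the pools gave p = 0.1, which is the smallest possible with 3 pools against 3. Mutant 3 was the highest of the mutant pools for this gene, and without it the log2 change was -0.48 (limma adjusted p = 0.00391). The call was lost without any 1 of the other arrays: the adjusted p was 0.0517 without mutant 1, 0.0604 without mutant 2, 0.103 without control 1, 0.118 without control 2 and 0.0590 without control 3. The spliced mRNA that IRE1 makes and the unspliced mRNA were not measured separately.

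The sensor genes Ern1 and Atf6 did not pass the test, and their intervals reach no further than 0.20 log2 units from 0. Ern1 had log2 intensities of 8.45, 8.39 and 8.55 in mutant pools, against 8.46, 8.34 and 8.51 in control pools. Its log2 change was 0.03 (95% interval -0.15 to 0.20, limma adjusted p = 0.844). Atf6 had 9.32, 9.31 and 9.15 in mutant pools, against 9.30, 9.31 and 9.24 in control pools. Its log2 change was -0.02 (95% interval -0.19 to 0.14, limma adjusted p = 0.875). In both genes the mutant and control pools overlapped. IRE1 and ATF6 are switched on by changes to the protein, which these mRNA levels do not measure.

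**Figure D1:**
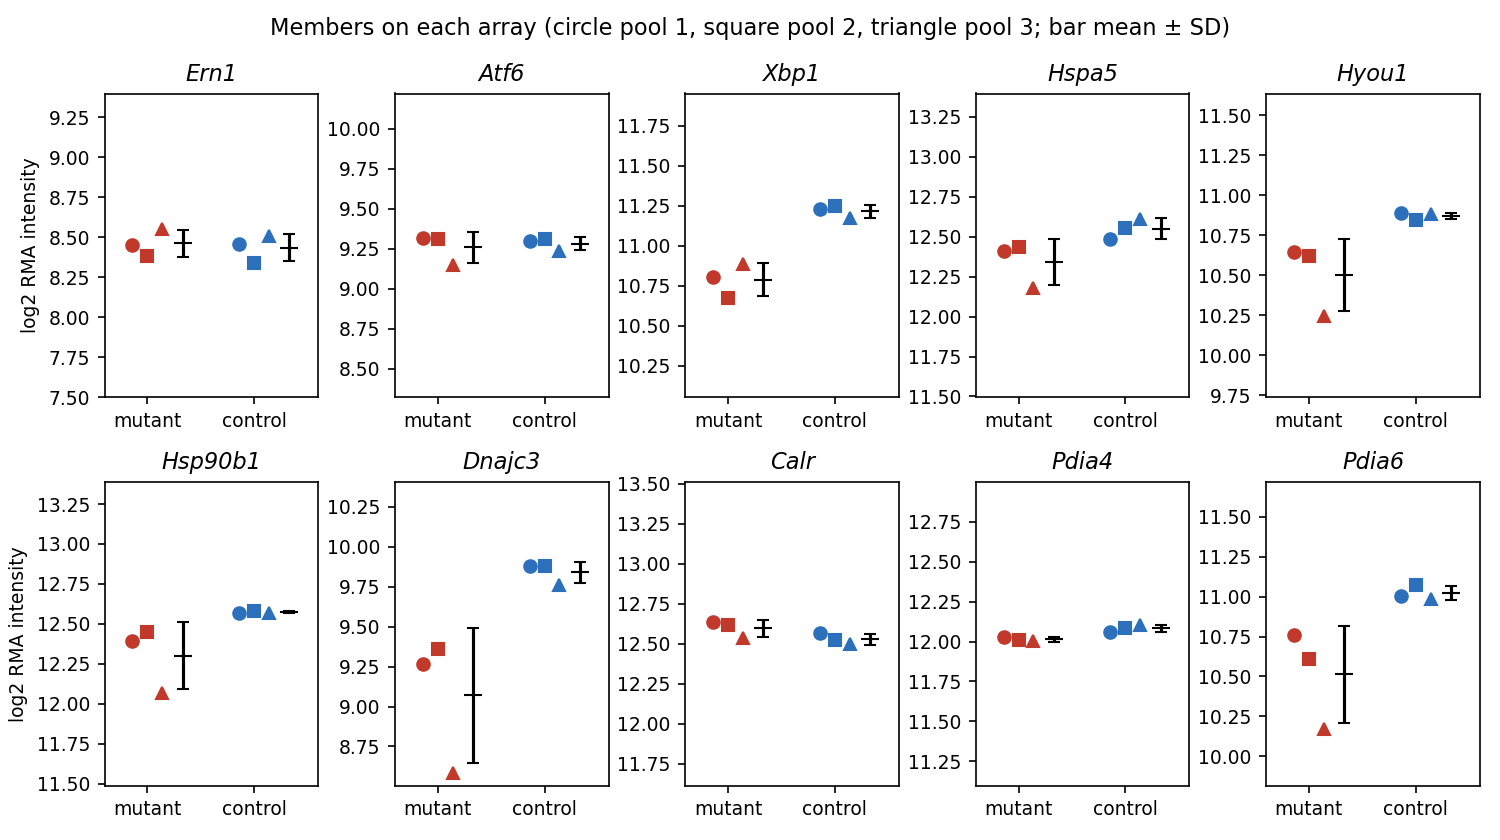
Log2 RMA intensity (y axis, with the same span in every panel) of the 10 members on each mutant (red) and control (blue) array; circles, squares and triangles are pools 1, 2 and 3, and black bars the mean ± SD of 3 pools. Mutant 3 lies lowest for Dnajc3, Pdia6, Hyou1, Hsp90b1 and Hspa5, while for Xbp1 it is the highest of the mutant pools, at 10.89.

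Hspa5 encodes BiP, the abundant HSP70 of the ER lumen. Hspa5, Hyou1, Hsp90b1 and Dnajc3 each read lower in every mutant pool than in every control pool, by amounts that did not pass over all 6 arrays. Dnajc3, which encodes a cochaperone that presents clients to BiP, had the largest change of the 10 members. Its log2 intensity was 9.26, 9.36 and 8.59 in mutant pools, against 9.88, 9.88 and 9.76 in control pools. Mutant 1 stood at 67.1% of the control mean, mutant 2 at 71.9% and mutant 3 at 42.0%. The log2 change was -0.77 (SE 0.18, 95% interval -1.19 to -0.34, limma adjusted p = 0.0520). Without mutant 3 it was -0.53, or 69.5% of control, and passed (limma adjusted p = 0.00313).

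Hyou1 encodes a large HSP70-like protein that helps BiP exchange its nucleotide. It read 10.64, 10.62 and 10.24 in mutant pools, against 10.89, 10.85 and 10.88 in control pools. The controls lay within a narrow band, and all mutant pools lay below it. The mutant mean was 10.50 ± 0.23 and the control mean 10.87 ± 0.02 (SD, n = 3 each). The difference in log2 was -0.37 (SE 0.11, limma adjusted p = 0.0935), and without mutant 3 it was -0.24 and passed (limma adjusted p = 0.0216).

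Hspa5 itself read 12.41, 12.44 and 12.18 in mutant pools, against 12.48, 12.55 and 12.61 in control pools. The groups did not overlap, but mutant 2 and control 1 were close. The log2 change was -0.21, or 86.5% of control (95% interval -0.41 to -0.01, limma adjusted p = 0.196). Hsp90b1, the HSP90 of the ER, read 12.39, 12.45 and 12.07 in mutant pools, against 12.57, 12.58 and 12.57 in control pools. Its log2 change was -0.27 (95% interval -0.51 to -0.03, limma adjusted p = 0.165). Neither gene passed without mutant 3, with log2 changes of -0.13 (limma adjusted p = 0.208) for Hspa5 and -0.15 (0.0975) for Hsp90b1. Relatives of these proteins outside the ER were Hspa8 in the cytosol (log2 -0.03, adjusted p = 0.794), Hspa9 in mitochondria (log2 -0.19, adjusted p = 0.175), Hsp90aa1 in the cytosol (log2 0.04, adjusted p = 0.728) and Trap1 in mitochondria (log2 0.05, adjusted p = 0.665). Hspa8 and Hsp90aa1 have near-identical copies in the genome, so their readings are uncertain. None of the 4 passed limma's threshold, and the difference between each member and its relative was not tested.

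The disulfide isomerases that form and reshuffle disulfide bonds in folding proteins are represented by Pdia6 and Pdia4, and neither passed over all 6 arrays. Pdia6 read 10.76, 10.61 and 10.17 in mutant pools, against 11.00, 11.07 and 10.99 in control pools. Mutant 1 stood at 83.6% of the control mean, mutant 2 at 75.2% and mutant 3 at 55.6%. The log2 change was -0.51 (SE 0.14, 95% interval -0.83 to -0.19, limma adjusted p = 0.0763), and without mutant 3 it was -0.34 and passed (limma adjusted p = 0.0151). Pdia4 read 12.03, 12.01 and 12.00 in mutant pools, against 12.06, 12.08 and 12.11 in control pools. Its groups did not overlap, yet the log2 change was -0.07, with a 95% interval of -0.20 to 0.07 (limma adjusted p = 0.513).

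Calr, which encodes the calcium-binding lectin chaperone calreticulin, had a change above 0 that did not pass. It read 12.64, 12.62 and 12.54 in mutant pools, against 12.56, 12.52 and 12.50 in control pools. Mutant 3 lay among the controls and the other mutant pools above them. The log2 change was 0.07 (95% interval -0.08 to 0.21, limma adjusted p = 0.543).

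**Figure D2:**
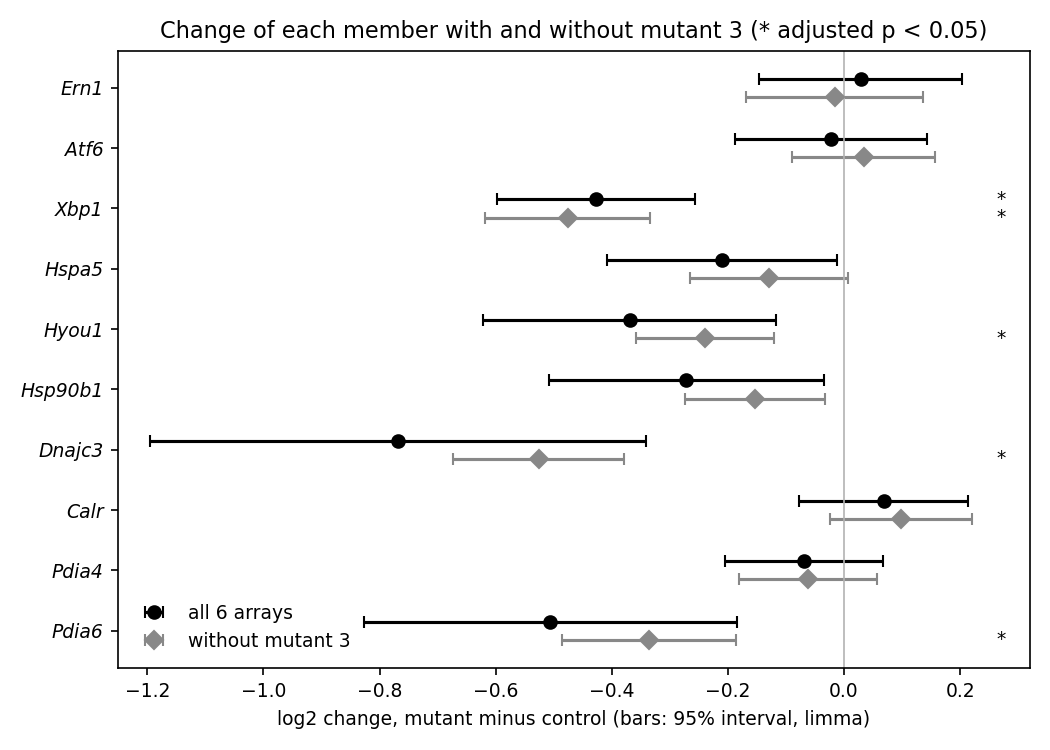
Log2 change of each member, mutant minus control (x axis), with limma's 95% interval, from all 6 arrays (black circles) and without mutant 3 (grey diamonds); a star marks an adjusted p under 0.05. Xbp1 is starred in both fits, and Dnajc3 (-0.77 and -0.53), Pdia6 (-0.51 and -0.34) and Hyou1 (-0.37 and -0.24) only without mutant 3.

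As a group, 1 of the 10 members was called lower and 0 higher, where 2.96% of all 15153 genes were called lower and 2.96% higher, in all 5.92%. At an unadjusted p under 0.05, 6 of the 10 were lower and 0 higher. Of all 15153 genes, 1658 (10.9%) were lower and 1778 higher. All mutant pools lay below all control pools in 7 members, where 15.1% of all genes did so, and above them in 0 members, where 17.2% did so. The median log2 change of the 10 was -0.24, against 0.03 over all genes. The members were chosen with earlier results of these data known, so these counts and medians do not test an excess over all genes. Without mutant 3, 4 members were called lower, Xbp1, Dnajc3, Pdia6 and Hyou1, where 6.43% of all genes were called lower, and 0 higher, where 6.41% were. The median of the members was then -0.14, against 0.01 over all genes. Without control 1, control 2 or control 3, 0 members passed in limma. In these fits 4 to 5 members were lower and 0 higher at an unadjusted limma p under 0.05. Shares of all genes at that threshold were not counted in these fits. Without mutant 1 only Pdia6 passed (adjusted p = 0.0490), and without mutant 2 only Dnajc3 (adjusted p = 0.0497). A negative change was seen in 8 members, all but Ern1 and Calr, where 40.7% of all genes had one. After quantile normalization 7 members did, since Atf6 changed sign, as did 7 without control 3 and mutant 3, and 9 without control 2. Quantile normalization left 4 members lower and 1 higher at an unadjusted limma p under 0.05, and the shares of all genes were not counted. The median of the members was then -0.18, against 0.01 over all genes. With only probe sets from the 40th percentile of mean level upward, the median over all genes was -0.01, and that of the members -0.24.

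The mutant pools differed in how low the members lay. Relative to the control mean, the median of the 10 members was -0.16 in mutant 1, -0.12 in mutant 2 and -0.35 in mutant 3, and between -0.02 and 0.01 in the controls. Over all genes the same medians were 0.01, 0.02 and 0.08 in mutants 1, 2 and 3. Mutant 3 was the lowest of the mutant pools for 8 of the 10 members, and mutant 2 for Ern1 and Xbp1. Mutant 3 stood apart over the whole array, and the share of all genes lowest in it was not counted. In these bulk samples, fewer cells that express a gene and less RNA per cell cannot be told apart. Blood markers, 4 of 6 measured, summed to 3884 to 16487 in mutant pools and 9177 to 22295 in control pools, with 0 called. Yolk sac endoderm, a secretory tissue, had 7 of 8 markers measured at sums of 893 to 985 in mutant pools and 894 to 966 in control pools, and 0 of the 7, Afp and Apob included, lay above the median of all probe sets. For 8 neural tube markers the sums were 1432 to 1532 in mutant pools and 1326 to 1469 in control pools, and 0 were called. For 5 of notochord and floor plate they were 657 to 782 in mutant pools and 655 to 707 in control pools, and for 8 of 9 of gut endoderm 1990 to 2228 in mutant pools and 2106 to 2166 in control pools. For 6 endothelial markers they were 575 to 1266 in mutant pools and 697 to 1855 in control pools, and for 6 of surface ectoderm 658 to 719 in mutant pools and 667 to 698 in control pools. None of the 4 last lists had a called gene. The part of these markers in the members' levels was not tested.

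**Figure D3:**
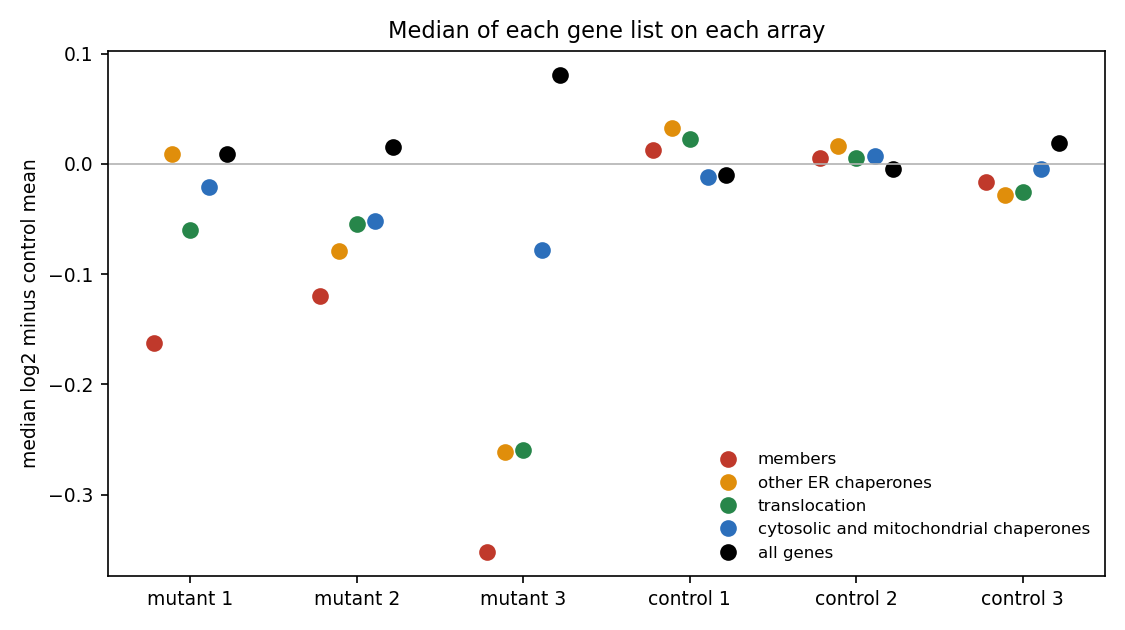
Median log2 intensity of 4 gene lists and of all genes on each array, minus the mean of the control arrays (y axis); each point is 1 list on 1 array, with mutants left of controls. The members lie lowest in mutant 3, at -0.35, while the median of all genes there is 0.08.

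Beyond the members, 105 other genes of the ER in 5 lists were measured, and 8 were called lower and 4 higher, with a median log2 change of -0.06. Over all genes, 2.96% were called lower and 2.96% higher, and the lists' counts are to be read against these shares. In 30 of the 105 all mutant pools lay below all control pools, and in 16 above them. The shares over all genes were 15.1% and 17.2%. Below lay 10 of 25 other chaperones and cochaperones of the lumen (1 above) and 9 of 22 genes of translocation (1 above). Among 25 other chaperones and cochaperones of the lumen, 5 were called lower, 1 higher, and 19 did not pass. Manf, whose product binds BiP, fell to 74.3% of control (log2 -0.43, SE 0.08, limma adjusted p = 0.0237). Its linear intensity was 796, 821 and 724 in mutant pools, against 1076, 1098 and 977 in control pools, with no overlap. Dnajb11, which encodes another J-domain cochaperone of BiP, fell to 81.0% (log2 -0.30, adjusted p = 0.0420). Serpinh1, the collagen chaperone, fell to 76.5% (log2 -0.39, adjusted p = 0.0235), Cnpy3, a partner of the HSP90 of the ER, to 77.6% (log2 -0.37, adjusted p = 0.0242) and Fkbp2, a prolyl isomerase, to 70.4% (log2 -0.51, adjusted p = 0.0338). Fkbp7, a prolyl isomerase too, rose to 126.8% of control (log2 0.34, adjusted p = 0.0432).

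Other disulfide isomerases and oxidases changed both ways, with 1 lower, 2 higher and 14 not passing of 17 measured. Txndc5, a thioredoxin-like isomerase, fell to 72.2% of control (log2 -0.47, SE 0.09, limma adjusted p = 0.0260). Tmx4, a membrane-bound thioredoxin relative, rose 1.53-fold (log2 0.61, SE 0.13, adjusted p = 0.0389) and the sulfhydryl oxidase gene Qsox2 rose 1.29-fold (log2 0.36, SE 0.06, adjusted p = 0.0202). Of 30 genes of quality control and degradation, Sel1l, the adaptor of the HRD1 ubiquitin ligase, fell to 77.3% (log2 -0.37, adjusted p = 0.0497). Edem2, which acts on the glycans of misfolded proteins, rose to 122.6% (log2 0.29, adjusted p = 0.0463), and 28 did not pass. Of 22 genes of translocation into the ER, 0 passed limma's threshold. At an unadjusted p under 0.05, where 1778 of all 15153 genes were higher and 1658 (10.9%) lower, 0 were higher and 3 lower. These 3 were Ssr3 (log2 -0.23, adjusted p = 0.0951), Srp9 (log2 -0.29, adjusted p = 0.118) and Spcs3 (log2 -0.51, adjusted p = 0.209). A dimmer Srp9 probe set had a log2 change of -0.14 (limma adjusted p = 0.288). A negative change was seen in 17 of the 22, where 40.7% of all genes had one. The median of the 22 relative to the control mean was -0.06 in mutant 1, -0.05 in mutant 2 and -0.26 in mutant 3. With mutant 3 left out, where 6.43% of all genes were called lower and 6.41% higher, 1 gene of translocation was called lower, Spcs3, and none higher. The isomerases and oxidases then held 1 lower and 4 higher, the genes of quality control and degradation 3 lower and 3 higher, the other chaperones 5 lower and 2 higher, and the other sensors 2 lower and 0 higher.

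Eif2ak3, which encodes the sensor PERK, fell to 77.8% of control (log2 -0.36, SE 0.07, limma adjusted p = 0.0253), and it was the 1 gene called of 11 other sensors and genes for their processing. It read 7.51, 7.38 and 7.36 in mutant pools, against 7.74, 7.80 and 7.80 in control pools, with no overlap. Its linear intensity was 164 to 182 in mutant pools and 214 to 222 in control pools, below array medians of 308 to 318. Among 10 genes of the PERK and ATF4 arm, Atf4 fell to 72.4% (log2 -0.47, SE 0.07, adjusted p = 0.0137) and 9 did not pass. Ddit3, which encodes the death-associated factor CHOP of this arm, had a log2 change of -0.07 (95% interval -0.22 to 0.08), and Ppp1r15a, which restores translation, of 0.09 (95% interval -0.08 to 0.26). Ddit3 and Ppp1r15a were named after their values were seen. Both read below the array medians of 308 to 318 in linear intensity. Ddit3 lay at 171 to 183 in mutant pools and 179 to 192 in control pools. Ppp1r15a lay at 208 to 216 in mutant pools and 181 to 208 in control pools. Of 31 cytosolic and mitochondrial chaperone genes, Dnajb4, a cytosolic J-domain cochaperone, rose 1.87-fold (log2 0.90, SE 0.17, adjusted p = 0.0262) and 30 did not pass. The median of that list was -0.03. In 12 of the 31 all mutant pools lay below all control pools, where 15.1% of all genes did so. In 4 all lay above, where 17.2% of all genes did so. At an unadjusted p under 0.05, 7 were lower and 2 higher, where 1658 (10.9%) of all 15153 genes were lower and 1778 higher. Without mutant 3, Hspe1, a mitochondrial cochaperonin gene, was called lower as well. The 14 genes called in these lists all passed without mutant 3, but 4 did so without mutant 1, 1 without mutant 2, 0 without control 1, 0 without control 2 and 2 without control 3. With Xist as a covariate 5 of the 14 passed, and 9 did not, Eif2ak3 (adjusted p = 0.0648) and Dnajb4 among them.

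**Figure D4:**
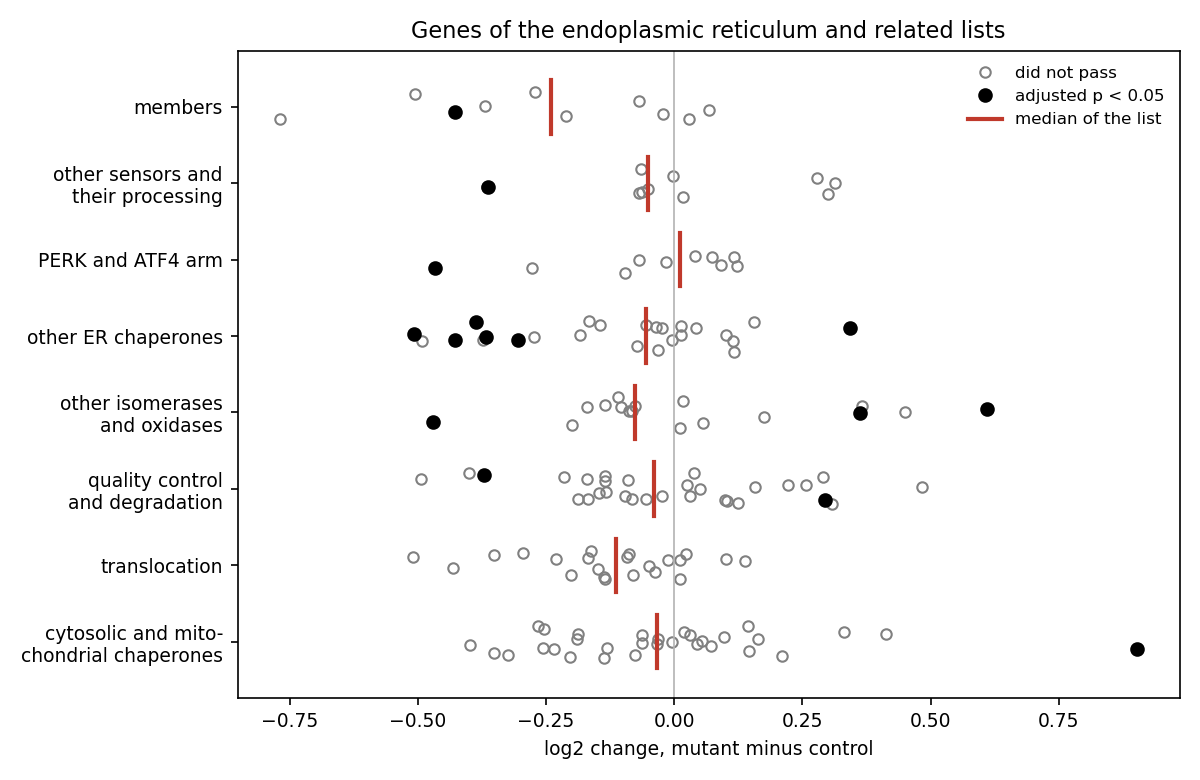
Log2 change, mutant minus control (x axis), of every measured gene of the 10 members and of 7 lists (rows); filled points passed at an adjusted p under 0.05, open points did not, and red bars are list medians. The members' median lies at -0.24 and those of the other lists between -0.11 and 0.01.

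Genes with the profile most like that of Xbp1 were sought by the root mean square difference over the 6 arrays, each gene taken relative to its control mean. They were Cenps (0.042 log2 units), Rpsa (0.045), Nubp1 (0.045) and Arv1 (0.047). For Dnajc3, the member with the largest change, they were Rpl23a (0.069), Lin28b (0.069), Snord38a (0.076) and Rpl30 (0.084). Ribosomal protein genes have near-identical copies in the genome, so the readings of Rpsa, Rpl23a and Rpl30 are uncertain.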

How the data were processed

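Per the submitters' processing notes, the authors made the deposited intensity values with RMA, a method of background correction, normalization and probe summary. For its version, chip description and filters, nothing is given in the sources used here. Total RNA (150 ng per array, per the labels) was converted to biotinylated cDNA. The log2 of each deposited linear value was taken and not normalized again. Of 18064 probe sets, 16311 had 1 gene symbol, 734 several and 1019 none, and only those with 1 were tested. They were fitted with limma 3.58.1 in R 4.3.3 (3 mutant against 3 control arrays, no covariate), with Benjamini-Hochberg adjustment. Where a gene had more than 1 probe set (663 genes), the brightest on average stood for it. The fit was tested on simulated data.

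The members and lists were chosen with earlier results of these data known. Named are all members, Taf10, in each list up to 6 called genes or else the 3 with the smallest p, the relatives Hspa8, Hspa9, Hsp90aa1 and Trap1 (Hsp90ab1 is not analysed here), and the 4 nearest profiles of the members with the smallest p and the largest change. Exceptions are marked. The titles call the pools biological replicates, and their number limits the precision.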

Additional observations from a re-analysis of the deposited data

How the results depend on the processing

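Xbp1 was lower under all 17 alternatives, with log2 changes from -0.52 (array weights) to -0.37 (without mutant 2), and passed under 12. With 1 array left out it ran from -0.48 to -0.37. The number of members called lower, 1 with all arrays, was 2 with median centring and 2 with the mean of a gene's probe sets (Xbp1 and Dnajc3 each time), 4 with array weights, 4 without control 3 and mutant 3 together and 4 at an adjusted p under 0.1 (Xbp1, Dnajc3, Pdia6 and Hyou1 each time), and 0 to 4 with 1 array left out. No member was called higher under any of these. Probe sets called changed numbered 972 with all arrays, 3924 with array weights, 561 with Xist as a covariate, 2321 without control 3 and mutant 3, 1849 at an adjusted p under 0.1, and 50 (without control 1) to 2119 (without mutant 3) with 1 array left out. Why these counts moved was not tested. With the replicate number as a block, 2 members passed (Xbp1, adjusted p = 0.0321, and Dnajc3, 0.0282) and 1189 probe sets. Deviations of same-numbered mutant and control arrays correlated at 0.134, 0.0769 and 0.316, and only number 3 correlated best with its own, so the numbers were not taken as pairs. Of the 14 other genes called, the block lost Dnajb11, Tmx4, Edem2 and Sel1l, limma with a trend Dnajb11, Edem2 and Sel1l, quantile normalization Fkbp7, the test of all probe sets Sel1l, and Eif2ak3 lay under the filter on level.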

Other observations

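Beside the 5 members, 14 measured genes held the ERSE letters in a RefSeq promoter window, of 11935 measured genes with an entry there, and 5 of these 14 stand on the lists of ER genes. Creld2, a BiP-associated protein of the ER, had a log2 change of -0.49 (limma adjusted p = 0.0914) and Canx, the membrane-bound lectin chaperone calnexin, of -0.18 (limma adjusted p = 0.182), and in both the mutant pools all lay below the controls. Syvn1, the HRD1 ubiquitin ligase, had a log2 change of -0.06, the oxidase gene Ero1b of -0.09 and Derl3 of 0.04. Outside the lists, Zfp57, a zinc finger gene that keeps imprints, was called lower (log2 -0.46, limma adjusted p = 0.0133) and was the 1 gene called among the 14, where 2.83% of all genes with a promoter entry were called lower. In 5 of the 14 all mutant pools lay below all control pools, and in 2 above them. Over the 11935 genes with an entry, 1804 lay below and 2099 above. A change below 0 was seen in 7 of the 14, where 40.5% of genes with an entry had one. The median log2 change of the 14 was -0.01, against 0.04 over all genes with an entry. These genes were named after their values were seen.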
